A study of Homo sapiens with 18 samples.

Results

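The genes described here are YAP1, its paralogue WWTR1 (the gene for TAZ), the 4 TEAD genes and 4 genes that read out or restrain their activity: AMOTL2, ANKRD1, AXL and VGLL4. The 10 genes were taken by symbol from gene tables of 63677 identifiers. All 10 had a row in every library, and 9 of them, all but ANKRD1, reached a TPM of 1 (transcripts per 1000000, an abundance scaled for transcript length) in at least 3 libraries and were tested. The libraries were bulk RNA sequencing of tumours that human neuroblastoma cell lines had formed as xenografts. SKNAS is the SK-N-AS line, and LAN-1 and KELLY are lines that carry an amplified MYCN gene. Each line had an arm labelled Hmx1 and a control arm with 3 libraries each, 18 libraries in 6 groups. No other treatment is labelled in any group. The labels do not say whether Hmx1, a homeobox transcription factor, was raised or lowered, by which construct or in how many clones. Nor do they state that each library was a different animal, and every p-value below therefore measures library-to-library spread that could be purely technical.

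YAP and TAZ are transcriptional coactivators without a DNA-binding domain of their own. In the nucleus they bind the TEAD transcription factors, which recognise the motif GGAATG, while the Hippo kinase cascade (STK3 and STK4, then LATS1 and LATS2) phosphorylates YAP and TAZ and holds them in the cytoplasm. In neuroblastoma, YAP and TAZ are known as genes of the mesenchymal rather than the noradrenergic (sympathetic neuron-like) cell state.

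All libraries sum to the same TPM total, and the tables hold no read counts, so the depth behind each value is unknown. Mitochondrial transcripts took 4.47% to 33.8% of the TPM. The share was at most 7.07% in LAN-1 libraries, below every SKNAS and KELLY library. In KELLY control tumours it was 33.8%, 12.9% and 29.6%, listed by replicate. Within that group, replicate 2 had the highest YAP1, TEAD2, TEAD3, TEAD4, AMOTL2 and VGLL4, but not the highest WWTR1, TEAD1 or AXL. The TPM total is fixed, so the mitochondrial share bears on other TPM values when lines are compared. Its part in the KELLY control spread was not tested. The HMX1 row itself held 1.24, 0.193 and 0.411 TPM in SKNAS Hmx1 tumours and 0 in each SKNAS control tumour. HMX1 lay at 11.5 to 16.5 TPM in LAN-1 Hmx1 tumours against 11.1 to 11.9 TPM in LAN-1 control tumours, and at 4.68 to 6.40 TPM in KELLY Hmx1 tumours against 3.92 to 7.72 TPM in KELLY control tumours. The arms overlapped in both of those lines, and the species of the Hmx1 sequence is not labelled. All 6 noradrenergic markers examined (PHOX2A, HAND2, GATA3, ISL1, DBH and TH) averaged at least 1 TPM in every group except SKNAS Hmx1, where 5 did. In bulk tumours, fewer cells of a type and less RNA per cell cannot be told apart.

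YAP1 and WWTR1 were high in SKNAS tumours and low in tumours of both other lines, in both arms. YAP1 (chromosome 11, 101981192 to 102104154 of GRCh37, plus strand) had 14.4, 24.4 and 20.8 TPM in SKNAS Hmx1 tumours, against 32.8, 15.4 and 20.1 TPM in SKNAS control tumours. In LAN-1, YAP1 had 1.39, 1.196 and 0.844 TPM in Hmx1 tumours, against 1.66, 1.35 and 0.842 TPM in control tumours. In KELLY, YAP1 had 1.70, 1.39 and 0.488 TPM in Hmx1 tumours, against 0.397, 2.12 and 0.401 TPM in control tumours. The lowest SKNAS library thus lay above every library of the other lines, while the LAN-1 and KELLY libraries overlapped. Each value here and below is listed by replicate, and the numbering carries no pairing between groups.

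WWTR1 (chromosome 3, 149235022 to 149454501, minus strand) was likewise highest in SKNAS, with a wider gap to LAN-1 and KELLY. WWTR1 had 20.3, 23.0 and 16.2 TPM in SKNAS Hmx1 tumours, against 22.1, 20.3 and 17.6 TPM in SKNAS control tumours. The LAN-1 Hmx1 libraries held 0.140, 0.231 and 0.0479 TPM of WWTR1, against 0.689, 0.260 and 0.608 TPM in LAN-1 control libraries. These LAN-1 values were near 0, and the difference between the LAN-1 arms was not called. In KELLY Hmx1 tumours WWTR1 was listed at 0, 0.0249 and 0.0588 TPM, against 0, 0.364 and 0.871 TPM in KELLY control tumours.

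**Figure D1:**
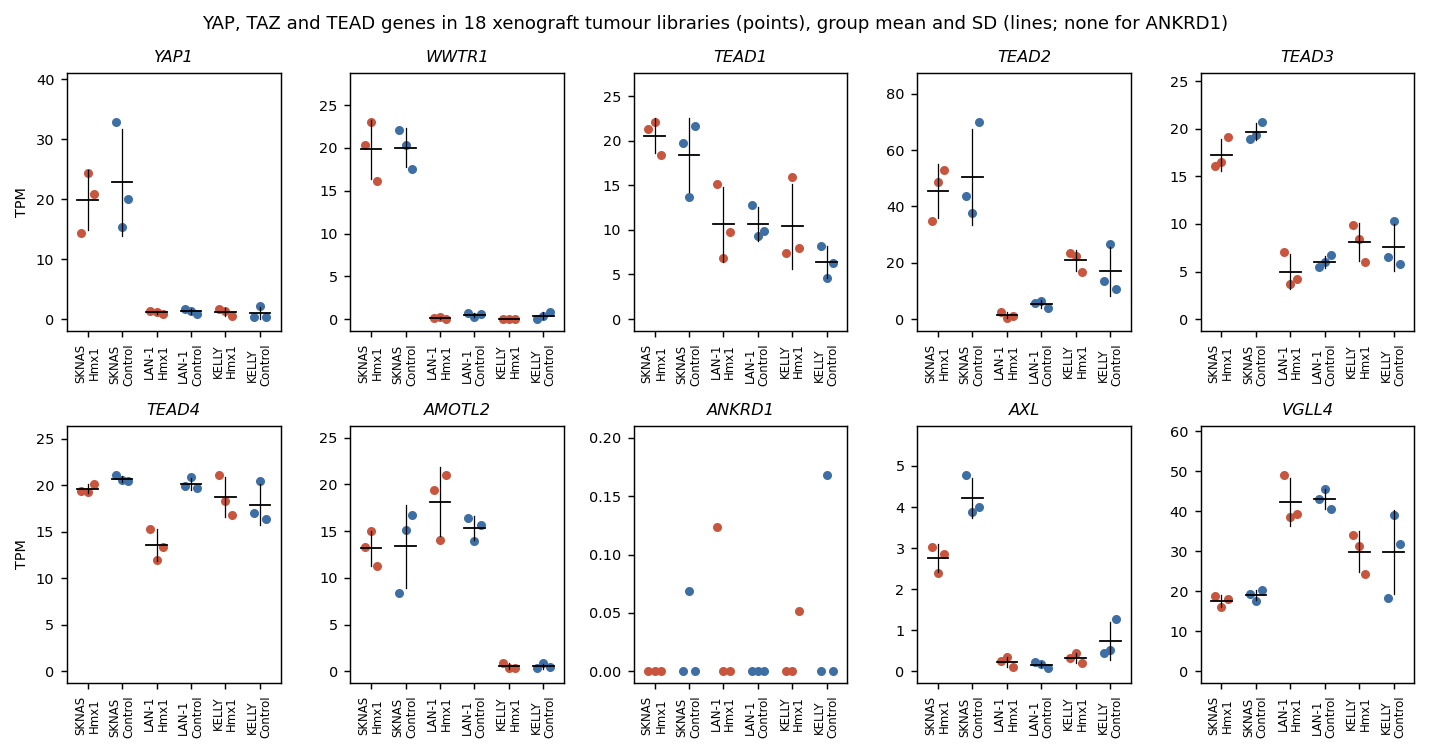
TPM of the 10 genes (vertical axis, linear, a scale of its own per gene) in the 18 libraries (points), with Hmx1 tumours in red and control tumours in blue; horizontal lines are group means and vertical lines SD over 3 libraries. YAP1 and WWTR1 lie at 14.4 TPM or more in all 6 SKNAS libraries and at 2.12 TPM or less in the other 12, AMOTL2 is below 1 TPM in KELLY, and ANKRD1 never passes 0.168 TPM.

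The line differences were tested with limma on log2(TPM + 1), with Benjamini-Hochberg adjustment over 18650 genes. A gene was called at an adjusted p under 0.05, and a difference on this scale understates the change of low genes. In control tumours, YAP1 was higher in SKNAS than in LAN-1 by 3.33 on the log2 scale (SE 0.33, limma adjusted p = 1.58e-07) and higher than in KELLY by 3.64 (SE 0.33, limma adjusted p = 4.73e-08). WWTR1 was higher in SKNAS than in LAN-1 by 3.80 (SE 0.21, limma adjusted p = 5.41e-11) and than in KELLY by 3.94 (SE 0.21, limma adjusted p = 3.49e-11). The same contrasts in the Hmx1 arms gave 3.26 and 3.27 for YAP1, and 4.18 and 4.33 for WWTR1. Between LAN-1 and KELLY, neither gene was called: in control tumours the difference was 0.31 for YAP1 (95% interval -0.39 to 1.002) and 0.14 for WWTR1 (95% interval -0.30 to 0.58).

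These contrasts have a high background, because the lines differ at most genes. Of all 18650 genes, 52% were called between SKNAS and LAN-1 control tumours, 65.7% between SKNAS and KELLY control tumours and 51.8% between LAN-1 and KELLY control tumours. Among the 9 tested genes of the set, 6 were higher and 1 lower in SKNAS than in LAN-1, 7 higher and 1 lower in SKNAS than in KELLY, and 2 higher and 2 lower in LAN-1 than in KELLY. In the Hmx1 arms, where 53.1%, 64.8% and 49.9% of all genes were called, the counts were 7 higher and 1 lower, 7 higher and 1 lower, and 1 higher and 3 lower. The last count was 2 instead of 4 in all without replicate 2 of LAN-1 Hmx1 or replicate 1 of KELLY Hmx1. The median of all genes was itself shifted, by 0.18 between SKNAS and LAN-1, 0.54 between SKNAS and KELLY and 0.34 between LAN-1 and KELLY in control tumours. Relative to those medians, YAP1 was higher in SKNAS by 3.15 and 3.09, and WWTR1 by 3.62 and 3.39. The median of the 9 genes was 1.56, 1.57 and 0.17 in the 3 control contrasts.

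**Figure D2:**
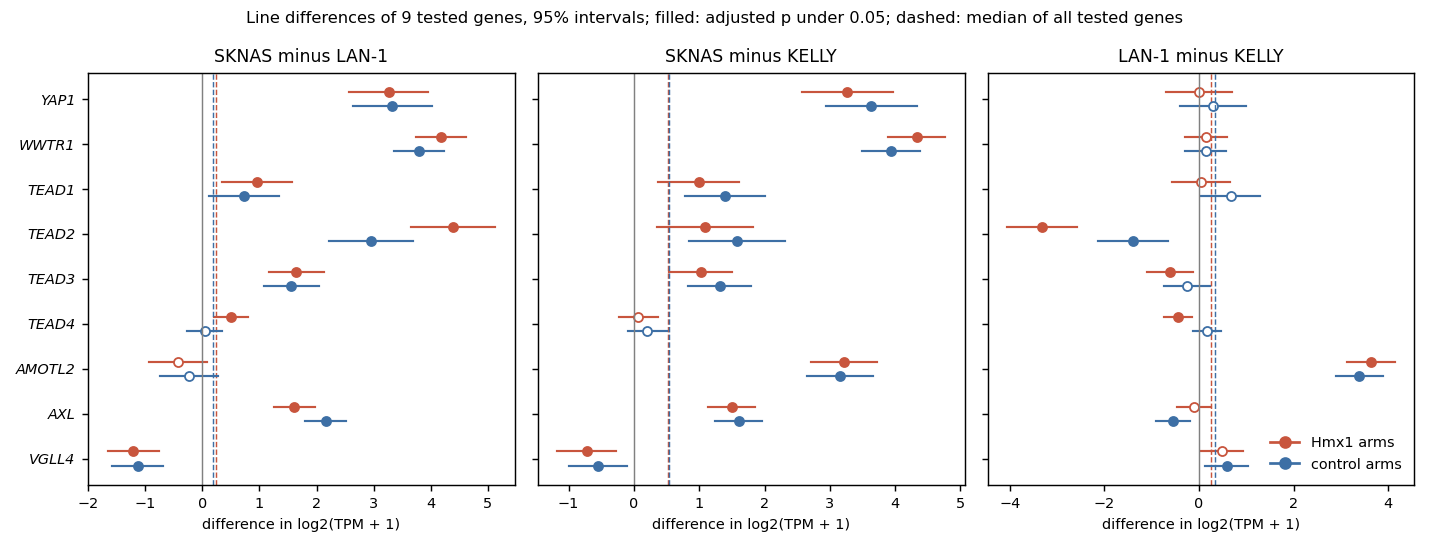
Differences in log2(TPM + 1) between lines for the 9 tested genes (points, filled where the adjusted p is under 0.05), with 95% intervals, in Hmx1 arms (red) and control arms (blue); dashed lines are the medians of all 18650 tested genes. YAP1 and WWTR1 lie more than 3 log2 units above 0 in both SKNAS contrasts, AMOTL2 does so in both KELLY contrasts, and VGLL4 is the gene below 0 wherever SKNAS is compared and called.

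The 4 TEAD genes, whose products bring YAP and TAZ to DNA, were measured in all 18 libraries, and they divided differently between lines. TEAD2 (chromosome 19, 49843852 to 49865714, minus strand) had 34.8, 48.6 and 53.1 TPM in SKNAS Hmx1 tumours, against 43.6, 37.7 and 69.8 TPM in SKNAS control tumours. In LAN-1, TEAD2 had 2.58, 0.420 and 1.02 TPM in Hmx1 tumours, against 5.88, 6.58 and 3.95 TPM in control tumours. In KELLY, TEAD2 had 23.4, 22.6 and 16.6 TPM in Hmx1 tumours, against 13.4, 26.7 and 10.6 TPM in control tumours. The lines were ordered SKNAS, KELLY, LAN-1 with no overlap between them in either arm.

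TEAD2 was the TEAD gene with the largest difference between lines. In control tumours it was higher in SKNAS than in LAN-1 by 2.96 on the log2 scale (SE 0.35, limma adjusted p = 1.41e-06), higher in SKNAS than in KELLY by 1.57 (SE 0.35, limma adjusted p = 0.000788) and lower in LAN-1 than in KELLY by a log2 difference of -1.39 (SE 0.35, limma adjusted p = 0.0031). In the Hmx1 arms the differences were 4.40, 1.08 and -3.31, all called. The call between SKNAS and KELLY in the Hmx1 arms was lost with median-ratio scaling (0.50, limma adjusted p = 0.148), quantile normalization, coverage in place of TPM, or without replicate 3 of KELLY Hmx1 (0.93, limma adjusted p = 0.0514). TEAD2 shares 1 end with an unnamed gene on the same strand, ENSG00000197813, which reached 25.4 TPM, and the sources used here do not say how reads in the overlap were counted.

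TEAD3 (chromosome 6, 35441374 to 35464853, minus strand) was also highest in SKNAS. It had 16.1, 16.5 and 19.1 TPM in SKNAS Hmx1 tumours, against 19.0, 19.4 and 20.7 TPM in SKNAS control tumours. In LAN-1, TEAD3 had 7.05, 3.73 and 4.22 TPM in Hmx1 tumours, against 5.46, 5.95 and 6.70 TPM in control tumours. In KELLY, TEAD3 had 9.92, 8.39 and 6.01 TPM in Hmx1 tumours, against 6.51, 10.3 and 5.77 TPM in control tumours. Every SKNAS library exceeded every other one. In control tumours TEAD3 was higher in SKNAS than in LAN-1 by 1.56 (SE 0.23, limma adjusted p = 1.88e-05) and than in KELLY by 1.31 (SE 0.23, limma adjusted p = 8.65e-05). Between LAN-1 and KELLY control tumours its difference of -0.25 was not called, but it was called at -0.44 on FPKM, -0.55 without mitochondrial transcripts, -0.62 with quantile normalization and -0.68 both with median-ratio scaling and on coverage. In the Hmx1 arms it was called as lower in LAN-1 by a narrow margin (-0.62, limma adjusted p = 0.0329), and leaving out replicate 2 (-0.47) or 3 (-0.54) of LAN-1 Hmx1, or replicate 1 (-0.48) or 2 (-0.58) of KELLY Hmx1, ended that call.

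TEAD1 (chromosome 11, 12695969 to 12966298, plus strand), the founding member of the family, had 21.3, 22.1 and 18.4 TPM in SKNAS Hmx1 tumours, against 19.8, 13.7 and 21.7 TPM in SKNAS control tumours. It had 15.2, 6.84 and 9.82 TPM in LAN-1 Hmx1 tumours, against 12.8, 9.28 and 9.87 TPM in LAN-1 control tumours. In KELLY, TEAD1 had 7.36, 15.9 and 7.97 TPM in Hmx1 tumours, against 8.24, 4.66 and 6.32 TPM in control tumours. SKNAS libraries lay above the others within each arm, by a smaller step than for TEAD2 or TEAD3. In control tumours TEAD1 was higher in SKNAS than in KELLY by 1.39 (SE 0.29, limma adjusted p = 0.00049), and higher than in LAN-1 by 0.72 (SE 0.29, limma adjusted p = 0.0468). The second call was lost in 15 of 29 alternatives, 9 of them the loss of a single library, namely replicates 1 (0.66) and 3 (0.60) of SKNAS control, replicates 2 (0.64) and 3 (0.68) of LAN-1 control and, with the difference at 0.72, any SKNAS Hmx1 library or replicate 3 of LAN-1 Hmx1 or of KELLY control. Both were lost on the coverage values, and the TPM and coverage of TEAD1 do not rank it alike: its coverage was 1.247 to 4.79 over the 18 libraries, against 17.0 to 32.8 for TEAD4, whose TPM is of the same order. Between LAN-1 and KELLY control tumours its difference of 0.67 missed the threshold (limma adjusted p = 0.0643) and passed it without replicate 1 of LAN-1 Hmx1, replicate 1 of KELLY control (0.84) or replicate 2 of KELLY Hmx1. In the Hmx1 arms, the SKNAS excess of 0.95 over LAN-1 was not called without replicate 2 of LAN-1 Hmx1 (0.70, limma adjusted p = 0.0712), with median-ratio scaling (0.74) or with quantile normalization (0.67). Against KELLY in those arms it was not called with median-ratio scaling (0.43), with quantile normalization (0.36) or on coverage (0.14).

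TEAD4 (chromosome 12, 3068496 to 3149839, plus strand) was the most even of the family. It had 19.4, 19.3 and 20.1 TPM in SKNAS Hmx1 tumours, against 21.1, 20.6 and 20.5 TPM in SKNAS control tumours. In LAN-1, TEAD4 had 15.3, 11.99 and 13.4 TPM in Hmx1 tumours, against 19.9, 20.9 and 19.7 TPM in control tumours. In KELLY, TEAD4 had 21.1, 18.3 and 16.8 TPM in Hmx1 tumours, against 17.0, 20.4 and 16.3 TPM in control tumours. The LAN-1 Hmx1 libraries were the 3 lowest of the 18, and their difference from LAN-1 control was not called on TPM. No control contrast called TEAD4: its difference was 0.04 between SKNAS and LAN-1 (95% interval -0.26 to 0.34), 0.20 between SKNAS and KELLY (95% interval -0.10 to 0.50) and 0.17 between LAN-1 and KELLY (95% interval -0.13 to 0.47). Relative to the median of all genes those became -0.14, -0.34 and -0.17, and with median-ratio scaling the SKNAS difference from KELLY was -0.42 and called, so its direction there depends on the scaling. In the Hmx1 arms TEAD4 was higher in SKNAS than in LAN-1 (0.51, limma adjusted p = 0.00627). That call was lost with median-ratio scaling (0.29), on coverage (0.28) and with quantile normalization (0.23). TEAD4 was also lower in LAN-1 than in KELLY in those arms (-0.44, limma adjusted p = 0.0167), a call that ended without replicate 2 of LAN-1 Hmx1 (-0.36) or replicate 1 of KELLY Hmx1 (-0.35).

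The makeup of TEAD transcripts therefore differed between the lines. The summed TPM of the 4 genes was 91.6 to 110.7 in SKNAS Hmx1 and 91.3 to 133 in SKNAS control tumours, 23.0 to 40.2 in LAN-1 Hmx1 and 40.2 to 44.0 in LAN-1 control tumours, and 47.4 to 65.1 in KELLY Hmx1 and 39.0 to 62.1 in KELLY control tumours. TEAD2 supplied 37.9% to 47.9% of the sum in SKNAS Hmx1 and 41.3% to 52.6% in SKNAS control tumours. In LAN-1, TEAD2 supplied 1.83% to 6.43% of the sum in Hmx1 and 9.83% to 15.4% in control tumours, while TEAD4 supplied 38.2% to 52.2% and 45.2% to 48.9%. TEAD4 thus had the largest share in LAN-1 tumours, and TEAD2 in SKNAS tumours. After TEAD4, TEAD1 came next in LAN-1 by TPM, at 34.0% in Hmx1 and 25.1% in control tumours on average. By coverage it was TEAD3, at 28.3% in LAN-1 Hmx1 and 25.02% in LAN-1 control tumours, with TEAD1 at 6.72% and 4.70%. KELLY lay between, with TEAD2 at 34.6% to 37.8% in Hmx1 and 27.2% to 43.0% in control tumours. TEAD1 made up 7.50% to 24.5% of the TPM sum in KELLY but 1.21% to 5.27% of the coverage sum, so its share is the least certain of the 4.

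**Figure D3:**
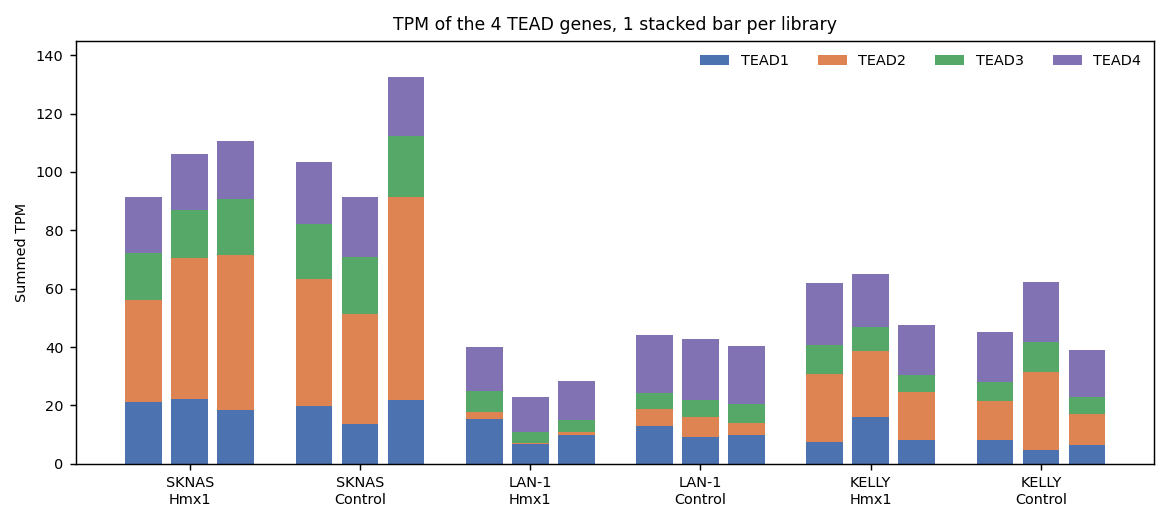
Summed TPM of the 4 TEAD genes (vertical axis), 1 bar per library, stacked by gene, with Hmx1 left of control within each line. TEAD2 (orange) fills 37.9% to 52.6% of the SKNAS bars and 1.83% to 15.4% of the LAN-1 bars, where TEAD4 (purple) fills 38.2% to 52.2%.

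VGLL4, a cofactor that competes with YAP and TAZ for TEAD binding, ran the other way. VGLL4 (chromosome 3, 11597544 to 11762220, minus strand) had 18.8, 16.02 and 18.1 TPM in SKNAS Hmx1 tumours, against 19.4, 17.7 and 20.3 TPM in SKNAS control tumours. In LAN-1, VGLL4 had 49.2, 38.5 and 39.3 TPM in Hmx1 tumours, against 43.1, 45.6 and 40.6 TPM in control tumours. In KELLY, VGLL4 had 34.0, 31.5 and 24.3 TPM in Hmx1 tumours, against 18.4, 39.1 and 31.8 TPM in control tumours. All LAN-1 libraries lay above all SKNAS ones, and replicate 1 of KELLY control fell within the SKNAS range. In control tumours VGLL4 was lower in SKNAS than in LAN-1, with a log2 difference of -1.13 (SE 0.21, limma adjusted p = 0.000251). Its difference of -0.55 between SKNAS and KELLY (limma adjusted p = 0.0316) lost its call without replicate 1 (-0.56) or 2 (-0.50) of SKNAS control, or replicate 2 (-0.33) or 3 (-0.47) of KELLY control. Its difference of 0.58 between LAN-1 and KELLY lost its call without replicate 1 of KELLY control (0.28) or replicate 1 (0.58) or 2 (0.54) of LAN-1 control. That difference also depended on the scaling, at 0.29 on FPKM, 0.25 without mitochondrial transcripts, 0.12 with quantile normalization, 0.11 with median-ratio scaling and 0.07 on coverage, none of them called. VGLL4 overlaps ATG7 on the opposite strand, which had up to 13.2 TPM. The library kit keeps strand, but the sources used here do not say whether the counting used it. The coverage of VGLL4 was 0.937 to 3.26, low for its TPM, as for TEAD1.

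Of 5 other listed TEAD partners, VGLL3 and FAM181B were tested, and VGLL1 was listed at 0 in every library. In control tumours, VGLL3 was higher in SKNAS than in LAN-1 by 0.998 and than in KELLY by 0.49. The medians of all tested genes in those contrasts were 0.18 and 0.54, so the VGLL3 difference from KELLY lay below the median. FAM181B was lower in SKNAS, with differences of -0.97 and -0.87.

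AMOTL2, an angiomotin that binds YAP and TAZ and is itself induced by them, separated KELLY from the other lines. AMOTL2 (chromosome 3, 134074716 to 134094321, minus strand) had 13.3, 15.0 and 11.2 TPM in SKNAS Hmx1 tumours, against 8.36, 15.1 and 16.7 TPM in SKNAS control tumours. In LAN-1, AMOTL2 had 19.4, 14.04 and 21.0 TPM in Hmx1 tumours, against 16.4, 13.9 and 15.7 TPM in control tumours. In KELLY, AMOTL2 had 0.918, 0.344 and 0.357 TPM in Hmx1 tumours, against 0.389, 0.865 and 0.439 TPM in control tumours. LAN-1 tumours, with little YAP1 and WWTR1, overlapped SKNAS tumours in AMOTL2. In control tumours the difference between SKNAS and LAN-1 was -0.23 (95% interval -0.74 to 0.27), and in Hmx1 tumours -0.43, which median-ratio scaling turned into a call (-0.63, limma adjusted p = 0.0215). In control tumours, AMOTL2 was higher in SKNAS than in KELLY by 3.16 (SE 0.24, limma adjusted p = 4.65e-09) and in LAN-1 than in KELLY by 3.39 (SE 0.24, limma adjusted p = 3.82e-09).

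AXL, a receptor tyrosine kinase whose gene is a known YAP target, followed YAP1 and WWTR1 at a lower level. AXL (chromosome 19, 41725108 to 41767671, plus strand) had 3.04, 2.38 and 2.85 TPM in SKNAS Hmx1 tumours, against 4.79, 3.88 and 4.01 TPM in SKNAS control tumours. In LAN-1, AXL had 0.245, 0.349 and 0.0961 TPM in Hmx1 tumours, against 0.229, 0.179 and 0.0896 TPM in control tumours. In KELLY, AXL had 0.329, 0.446 and 0.214 TPM in Hmx1 tumours, against 0.459, 0.508 and 1.28 TPM in control tumours. SKNAS stood above both other lines in every library. In control tumours AXL was higher in SKNAS than in LAN-1 by 2.16 (SE 0.17, limma adjusted p = 7.99e-09) and than in KELLY by 1.60 (SE 0.17, limma adjusted p = 3.38e-07). Its difference of -0.56 between LAN-1 and KELLY was not called without replicate 3 of KELLY control (-0.35, limma adjusted p = 0.0804).

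ANKRD1 (chromosome 10, 92671853 to 92681033, minus strand), which encodes a muscle ankyrin repeat protein and is among the most used YAP reporters, was nearly absent from the tables. It was listed at 0 in 14 libraries and held 0.0692 TPM in replicate 2 of SKNAS control, 0.124 TPM in replicate 1 of LAN-1 Hmx1, 0.0520 TPM in replicate 3 of KELLY Hmx1 and 0.168 TPM in replicate 2 of KELLY control. The 6 SKNAS libraries, at 14.4 TPM or more of YAP1, thus included 5 with ANKRD1 at 0. CCN2, another reporter gene, had 2.83, 1.77 and 1.91 TPM in SKNAS Hmx1 tumours, against 0.270, 1.246 and 0.558 TPM in SKNAS control tumours. In KELLY control tumours, with little YAP1, CCN2 had 0.550, 1.66 and 1.21 TPM, within or above the range of SKNAS control.

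The promoters of ANKRD1 and CCN2 and the second of 2 listed AMOTL2 promoters are shown because these YAP and TAZ target genes hold the TEAD motif close to their start yet differ from YAP1 in their pattern over the lines. Each line gives the 250 bases before the transcription start, from RefSeq on GRCh38.p14, minus strand, with GGAATG or its reverse complement CATTCC in capitals. ANKRD1 lies at chr10:90921088-90921337, CCN2 at chr6:131951373-131951622 and AMOTL2 at chr3:134374448-134374697.
ANKRD1: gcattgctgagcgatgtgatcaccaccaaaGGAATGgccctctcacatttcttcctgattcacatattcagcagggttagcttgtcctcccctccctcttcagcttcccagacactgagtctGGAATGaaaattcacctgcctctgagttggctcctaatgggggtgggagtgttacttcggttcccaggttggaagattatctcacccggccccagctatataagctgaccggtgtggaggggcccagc
CCN2: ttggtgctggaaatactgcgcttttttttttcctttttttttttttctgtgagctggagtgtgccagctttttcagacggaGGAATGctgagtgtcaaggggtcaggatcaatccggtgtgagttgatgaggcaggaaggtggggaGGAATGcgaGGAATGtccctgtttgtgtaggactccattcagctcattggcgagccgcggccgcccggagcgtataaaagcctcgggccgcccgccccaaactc
AMOTL2: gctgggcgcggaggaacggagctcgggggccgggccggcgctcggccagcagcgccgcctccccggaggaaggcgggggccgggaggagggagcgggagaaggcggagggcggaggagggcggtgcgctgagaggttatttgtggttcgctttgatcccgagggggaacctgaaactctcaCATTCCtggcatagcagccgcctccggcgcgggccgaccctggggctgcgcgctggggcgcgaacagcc

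Both strands were searched for GGAATG in windows of 300 bases, the 250 before and the 50 after each start, and the copies do not overlap. ANKRD1 holds it 220 and 128 bases before its start. CCN2 holds it 169, 104 and 95 bases before, the last copies with 3 bases between them, and AMOTL2 holds 1 copy 69 bases before. Of 35116 promoters in the table, 14.03% hold at least 1 copy, 1.37% hold at least 2 and 0.128% at least 3. For the set, 8 of 10 genes had a promoter in the table, TEAD1 and TEAD4 had none, and 4 of their 16 promoters hold a copy: those shown for ANKRD1 and AMOTL2, that of YAP1 (162 bases before) and the second of AXL (212 bases before). A match is a description of these letters and does not show binding.

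Within each line, no gene of the set was called between Hmx1 and control tumours. The background was 8.76% of all genes in SKNAS, 0.45% in LAN-1 and 0.0912% in KELLY, and the counts of the 9 tested genes at an unadjusted limma p under 0.05 were 1, 2 and 1. The median change of the 9 genes was -0.11 in SKNAS, -0.08 in LAN-1 and 0.06 in KELLY. YAP1 changed by -0.15 in SKNAS (95% interval -0.85 to 0.54), -0.08 in LAN-1 (95% interval -0.78 to 0.61) and 0.22 in KELLY (95% interval -0.48 to 0.91). WWTR1 changed by -0.02 in SKNAS (95% interval -0.46 to 0.42), and by -0.41 in LAN-1 and -0.41 in KELLY, where its TPM were near 0 in both arms.

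The largest difference between arms was that of TEAD2 in LAN-1, where Hmx1 tumours averaged 1.34 ± 1.12 TPM and control tumours 5.47 ± 1.36 TPM (SD over 3 libraries). The log2 difference was -1.55 (SE 0.35, 95% interval -2.29 to -0.82), which missed the threshold (limma adjusted p = 0.0663). It was called in 8 of 29 alternatives, among them without replicate 1 of LAN-1 Hmx1 (-1.91, limma adjusted p = 0.0165), without replicate 2 of KELLY control (-1.55, limma adjusted p = 0.0287) and on the coverage values (-1.62, limma adjusted p = 0.00944). TEAD4 in LAN-1 averaged 13.6 ± 1.68 TPM in Hmx1 tumours and 20.1 ± 0.647 TPM in control tumours, a log2 difference of -0.54 (95% interval -0.84 to -0.24, limma adjusted p = 0.138). On FPKM the TEAD4 difference was -0.48 and called (limma adjusted p = 0.0455), its only call among the alternatives. TEAD1 and TEAD3 differed by -0.06 and -0.27 in that line. Summed over the 4 genes, TEAD TPM averaged 30.5 ± 8.78 in LAN-1 Hmx1 tumours and 42.3 ± 1.95 in LAN-1 control tumours.

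AXL in SKNAS averaged 2.76 ± 0.337 TPM in Hmx1 tumours and 4.22 ± 0.492 TPM in control tumours (SD over 3 libraries). Its log2 difference was -0.48 (95% interval -0.84 to -0.12, limma adjusted p = 0.109), and without replicate 3 of KELLY control, which changes only the shared estimate of spread, the adjusted p was 0.0474. On FPKM it was -0.37 and called (limma adjusted p = 0.0446). AXL in KELLY differed by -0.37 (limma adjusted p = 0.716). Beside the SKNAS difference, summed TPM of 9 fibroblast markers was 818 to 917 in SKNAS Hmx1 tumours and 1156 to 1356 in SKNAS control tumours, with 8 and 9 of the 9 at a mean of 1 TPM or more and none at 0 in a whole group. COL1A1 and COL3A1 made up most of that sum, and neither was called. Of the 9, LUM, PDGFRA and DPT were called as lower, while DCN averaged 101.2 ± 9.86 TPM in SKNAS Hmx1 and 69.3 ± 20.1 TPM in SKNAS control tumours, and PDGFRB 39.9 ± 5.33 and 26.9 ± 6.49 TPM, without a call. Their part in the result was not tested, and the sources used here do not tell if mouse reads were taken out. In LAN-1, where the TEAD2 values differed, the same sum was 15.4 to 55.9 in Hmx1 tumours and 21.0 to 33.2 in control tumours.

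The Hmx1 effect itself did not differ between lines for any of the 9 genes at an adjusted p under 0.05, where 4.99% of all genes were called for SKNAS minus LAN-1, 4.85% for SKNAS minus KELLY and 0.209% for LAN-1 minus KELLY. At an unadjusted limma p under 0.05 there were 3, 0 and 2 of the 9. The Hmx1 effect on TEAD2 was -0.12 in SKNAS, -1.55 in LAN-1 and 0.38 in KELLY, so the largest change was the fall in LAN-1. As a signed difference, SKNAS minus LAN-1 gave 1.43 (95% interval 0.39 to 2.47, limma adjusted p = 0.128). LAN-1 minus KELLY gave -1.93 (95% interval -2.97 to -0.89, limma adjusted p = 0.197). Without replicate 1 of LAN-1 Hmx1 the first was 1.79 and called (limma adjusted p = 0.0335), and without replicate 2 of KELLY control the second was -2.29 and called (limma adjusted p = 0.0402).

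Around these genes, the Hippo pathway was described with lists of 17 kinase-module genes, 20 upstream regulators and 19 YAP and TAZ target genes. LATS2 and PTPN14 stand in 2 lists each. In SKNAS, 1 of 17 kinase-module genes was called between the arms, against 2 of 18 tested upstream regulators and 5 of 18 tested targets, beside 8.76% of all genes. With limma, no gene of any of the 3 lists was called in LAN-1 or KELLY, where 0.45% and 0.0912% of all genes were. At an unadjusted p under 0.05, 2 kinase-module genes, 2 upstream regulators and 2 targets were lower in LAN-1 Hmx1 tumours, and 1 target was higher in KELLY Hmx1 tumours. Of 7 listed macrophage markers, 3 were tested, and 1 was called as higher and 1 as lower in SKNAS Hmx1 than in SKNAS control tumours. The 7 summed to 190 to 287 TPM in Hmx1 and 77.8 to 105 TPM in control tumours. Nearly all of that was PTPRC, so the sum describes 1 gene and not a cell type. PTPRC averaged 230.6 ± 49.6 TPM in SKNAS Hmx1 and 91.9 ± 14.2 TPM in SKNAS control tumours (SD, n = 3 each). CD14, another of these markers, averaged 0.523 ± 0.242 TPM in SKNAS Hmx1 and 1.34 ± 0.283 TPM in SKNAS control tumours, and AIF1 was at 0 in every SKNAS control library. The 10 mesenchymal neuroblastoma markers summed to 500.2 to 544 TPM in SKNAS Hmx1 and 781 to 852 TPM in SKNAS control tumours. Of the 9 tested, 5 were called as lower and 0 as higher in SKNAS Hmx1 tumours, beside 8.76% of all genes. In LAN-1, 1 of the 9 was called as lower and 0 as higher, beside 0.45% of all genes. The part of either list in the pathway values was not tested.

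LATS2, which phosphorylates YAP and is also a YAP target, had 1.08, 1.14 and 1.06 TPM in SKNAS Hmx1 tumours, against 2.33, 2.31 and 2.23 TPM in SKNAS control tumours. The arms were far apart, with a log2 difference of -0.65 (SE 0.13, limma adjusted p = 0.00222) that was called in all 28 alternatives that kept the gene. LATS1, its paralogue, averaged 13.5 ± 0.927 TPM in SKNAS Hmx1 and 12.5 ± 0.659 TPM in SKNAS control tumours, a difference of 0.10 (95% interval -0.35 to 0.55, limma adjusted p = 0.903). In KELLY, LATS2 did not pass 0.0477 TPM in any library.

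PTPN14, a phosphatase that binds YAP and holds it in the cytoplasm, had 5.47, 5.21 and 6.31 TPM in SKNAS Hmx1 tumours, against 10.1, 9.55 and 11.02 TPM in SKNAS control tumours (log2 difference -0.75, SE 0.15, limma adjusted p = 0.00243). The call of PTPN14 was lost with a pseudocount of 0.1 (-0.84, limma adjusted p = 0.218). AMOT, the founding angiomotin, rose to 18.6, 26.2 and 18.8 TPM in SKNAS Hmx1 tumours, against 10.2, 7.50 and 10.6 TPM in SKNAS control tumours (1.09, SE 0.29, limma adjusted p = 0.0237). That call was lost without replicate 1 or 2 of SKNAS control or replicate 2 of SKNAS Hmx1, where the difference was as low as 0.93.

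The target genes moved both ways. F3, tissue factor, fell to 51.5, 47.8 and 34.4 TPM in SKNAS Hmx1 tumours, against 83.9, 88.7 and 105 TPM in SKNAS control tumours (-1.05, SE 0.22, limma adjusted p = 0.00483). CRIM1, a transmembrane protein that binds growth factors, rose to 6.56, 8.59 and 9.36 TPM in SKNAS Hmx1 tumours, against 3.05, 3.81 and 3.98 TPM in SKNAS control tumours (0.98, SE 0.20, limma adjusted p = 0.00349). That call was lost with a pseudocount of 0.1 (1.15, limma adjusted p = 0.0985). With LATS2, PTPN14 and F3 lower and CRIM1 and CCN2 higher, 3 of 18 tested targets fell and 2 rose. CCN2, a matricellular protein, rose by 0.93 (SE 0.25, limma adjusted p = 0.0236), and its call was lost without replicate 1 or 3 of SKNAS control or replicate 1 of SKNAS Hmx1, where the difference was as low as 0.75, with a pseudocount of 0.1 (1.69) and when only the compared groups were fitted. CCN1, its close relative, had 7.67, 7.45 and 7.05 TPM in SKNAS Hmx1 tumours, against 4.50, 9.75 and 6.23 TPM in SKNAS control tumours, and the groups overlapped (0.15, limma adjusted p = 0.907).

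**Figure D4:**
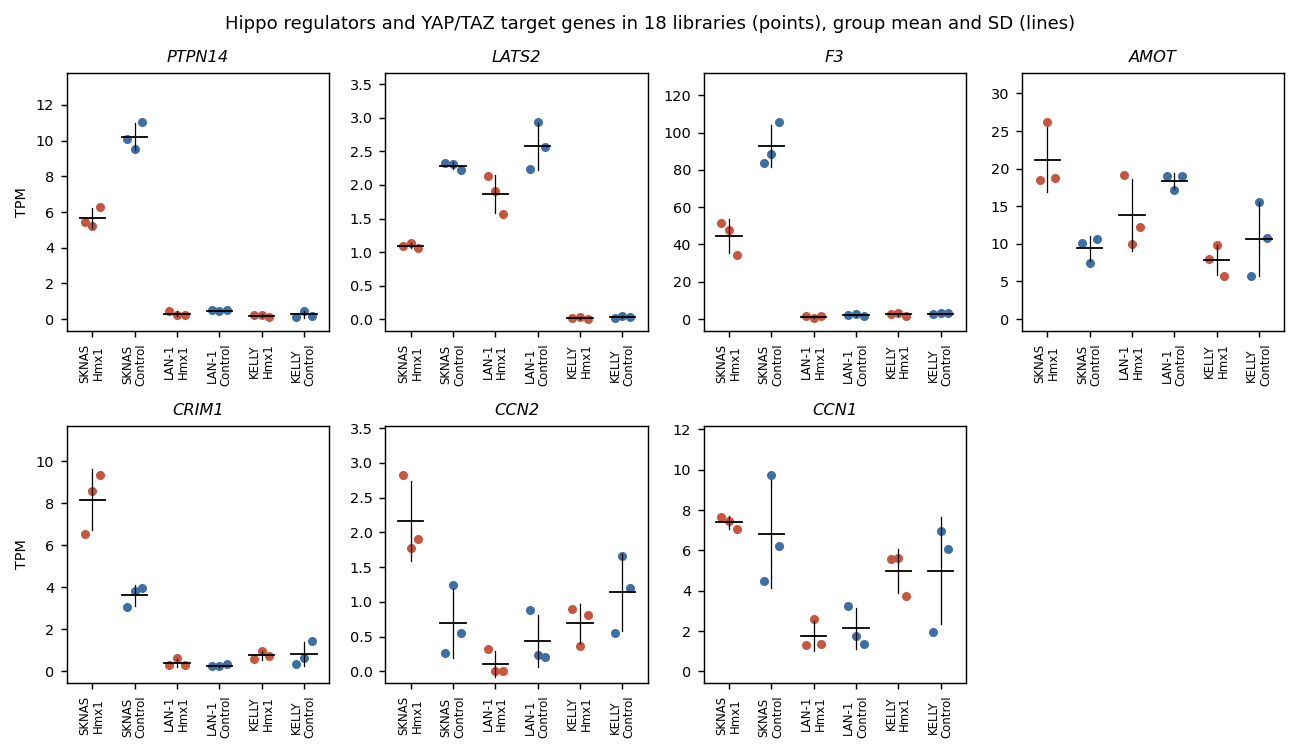
TPM of 7 Hippo regulators and YAP and TAZ target genes (vertical axis, linear, a scale of its own per gene) in the 18 libraries (points), Hmx1 tumours in red and control tumours in blue, with group means and SD over 3 libraries (lines). In SKNAS the arms do not overlap for PTPN14, LATS2, F3, AMOT, CRIM1 and CCN2, and they overlap for CCN1. The genes without overlap were all called between these arms, so their separation is not a further result.

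Between lines, targets were more often higher than lower in SKNAS: in control tumours 11 of 18 were higher and none lower than in LAN-1, and 12 of 18 were higher and none lower than in KELLY, where 31.5% and 49.5% of all genes were higher. At an unadjusted limma p under 0.05, 1 target was lower in SKNAS than in LAN-1 and 0 were lower than in KELLY. Some marker lists of other cells and states, though not all, moved with the same line contrasts, and so with those of YAP1 and WWTR1. Of 9 fibroblast markers, 9 were higher in SKNAS than in LAN-1 control tumours and 7 than in KELLY, with summed TPM of 1156 to 1356 in SKNAS control, 21.0 to 33.2 in LAN-1 control and 93.6 to 176 in KELLY control tumours. Of 9 tested mesenchymal neuroblastoma markers, 7 were higher and 2 lower than in LAN-1, and 6 higher and 1 lower than in KELLY. Of 6 noradrenergic markers, 5 were lower than in either line. Endothelium and muscle lists were mixed against KELLY. Of 6 tested endothelium markers, 3 were higher and 0 lower than in LAN-1, and 3 higher and 3 lower than in KELLY. Of 3 tested muscle markers, 2 were higher and 0 lower than in LAN-1, and 1 higher and 1 lower than in KELLY. Of 3 tested macrophage markers, 2 were higher than in either line. Their part in these results was not tested. The 6 largest differences from LAN-1 were those of F3 (4.91), IGFBP3 (3.44), CCDC80 (3.25), PTPN14 (2.92), GADD45A (2.17) and MYOF (1.99), which encode a clotting initiator, an IGF binding protein, a matrix protein, a phosphatase, a growth arrest protein and a membrane repair protein. IGFBP3 was listed at 0 in all 6 LAN-1 libraries and averaged 5.86 TPM in KELLY Hmx1 and 5.74 TPM in KELLY control tumours, so that it did not follow YAP1 across the lines. Between LAN-1 and KELLY control tumours, 4 of 18 targets were higher and 5 lower, beside 51.8% of all genes called in either direction, a share close to that of the targets. CCN1 was higher in SKNAS than in LAN-1 by 1.31 (limma adjusted p = 0.00349), and its difference of 0.45 from KELLY was not called.

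Kinase-module genes were higher in SKNAS than in KELLY for 12 of 17, led by STK3 (2.53) and MAP4K4 (2.07), and higher in 6 and lower in 2 of 17 against LAN-1. The shares called in either direction, 70.6% and 47.1%, lay near the 65.7% and 52% of all genes called in those contrasts. All of the module's calls against KELLY were in the higher direction, in which 49.5% of all genes were called. Against LAN-1, 31.5% of all genes were called as higher. LATS1 was lower in SKNAS than in LAN-1, with a log2 difference of -1.0003 (limma adjusted p = 0.000769). LATS2 averaged 2.29 ± 0.0547 TPM in SKNAS control, 2.58 ± 0.349 TPM in LAN-1 control and 0.0346 ± 0.0142 TPM in KELLY control tumours. Of the tested upstream regulators, 4 of 18 were higher and 2 lower in SKNAS than in LAN-1 control tumours, among them FRMD6 (3.07) and PTPN14 (2.92), and 9 were higher and 1 lower against KELLY. Their shares called in either direction, 33.3% and 55.6%, lay below those of all genes. The median of all genes was 0.54 higher in SKNAS than in KELLY, beside list medians of 0.83 for the kinase module, 0.67 for upstream regulators and 1.05 for targets.

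On chromosome 3, several tested neighbours of WWTR1 shared its restriction to SKNAS. A gene could pass the filter through its SKNAS values alone, while neighbours low in every line were left out. Of all tested genes, 31.5% were called as higher in SKNAS than in LAN-1 control tumours, and 49.5% than in KELLY. Among 11 tested genes that start within 500 kb of it, TM4SF1 averaged 101.2 TPM in SKNAS Hmx1 and 160.6 TPM in SKNAS control tumours, and was listed at 0 in all 12 LAN-1 and KELLY libraries. TM4SF4 averaged 312.5 TPM in SKNAS Hmx1 and 291.1 TPM in SKNAS control tumours, with at most 0.143 TPM in any other group. Both encode membrane proteins of the transmembrane 4 family. CP, the gene for the copper-binding ferroxidase ceruloplasmin, averaged 5.49 TPM in SKNAS Hmx1 and 12.2 TPM in SKNAS control tumours, and at most 0.257 TPM elsewhere. EEF1A1P45, a pseudogene copy of an abundant elongation factor and so of uncertain counting, lies inside TM4SF4 and averaged 29.0 and 22.3 TPM in the SKNAS arms. On the other side, COMMD2, the nearest gene, averaged 49.6 TPM in SKNAS Hmx1, 64.6 in SKNAS control, 72.5 in LAN-1 Hmx1, 57.6 in LAN-1 control, 38.1 in KELLY Hmx1 and 39.9 in KELLY control tumours. The remaining tested neighbours (HLTF, HPS3, RNF13, PFN2, PFN2-AS1 and TMEM183BP) differed by -0.81 to 1.65 between SKNAS and the other lines in control tumours.

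No tested gene near YAP1 was called as higher in SKNAS control tumours. Of the 5 tested genes within 500 kb, CEP126 (-1.11 and -0.85) and CFAP300 (-2.17 and -1.33), a centrosomal and a ciliary gene, were lower in SKNAS than in LAN-1 and KELLY. BIRC3 and BIRC2, inhibitors of apoptosis that lie beside YAP1, differed by -0.15 and -0.11 and by -0.47 and -0.0016 without a call. TMEM123, a membrane receptor gene, was lower in SKNAS than in LAN-1 by a log2 difference of -0.74 and not called against KELLY (0.13). In the Hmx1 arms BIRC3 averaged 1.502 TPM in SKNAS, 0.208 TPM in LAN-1 and 0.312 TPM in KELLY, and was higher in SKNAS than in LAN-1 by 1.04 (limma adjusted p = 1.31e-05).

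**Figure D5:**
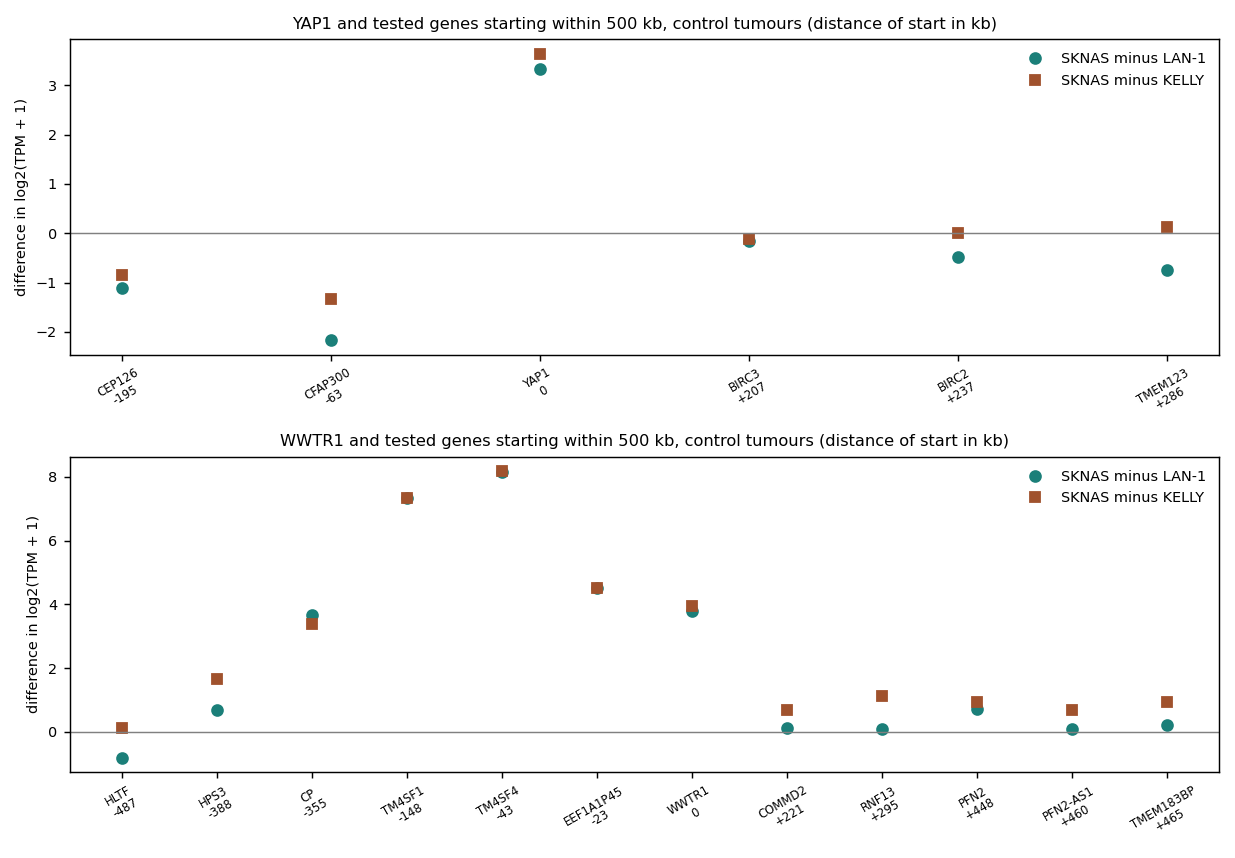
Differences in log2(TPM + 1) between SKNAS and LAN-1 (circles) and SKNAS and KELLY (squares) control tumours for YAP1 (top) and WWTR1 (bottom) and the tested genes that start within 500 kb, in order along the chromosome, with the distance of each start in kb under its symbol. Beside WWTR1, TM4SF1, TM4SF4, CP and EEF1A1P45 lie above 3, while no neighbour of YAP1 exceeds 0.135.

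Over the 18 libraries, the genes with the pattern most like YAP1 (smallest root mean square difference of centred log2(TPM + 1)) were LGR5 (0.31), ANXA4 (0.31), LINC01036 (0.34), CALCRL (0.34) and PPEF1 (0.34). LGR5 averaged 27.6 TPM in SKNAS Hmx1 and 38.5 TPM in SKNAS control tumours and at most 3.10 TPM in any other group. The closest to WWTR1 were AASS (0.27), ITPKB (0.28), FOXR2 (0.30), F11R (0.30) and SIAH1P1 (0.30). YAP1 ranked 132 in likeness to WWTR1 and WWTR1 ranked 176 in likeness to YAP1, at a difference of 0.55. AXL ranked 956 and TEAD3 ranked 1446 in likeness to YAP1, while VGLL4 ranked 15571. The 6 libraries of a line share its genome, so these ranks mostly describe 3 lines.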

How the data were processed

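Per the labels' protocols, RNA was taken from xenograft tumours with a lipid tissue kit, and libraries were made with a strand-keeping mRNA kit and sequenced as paired reads. The submitters' processing notes name bcl2fastq, STAR and FastQC and the builds GRCh38.p12 and GRCh37, with no roles. The coordinates in the tables are those of GRCh37, since the last gene on chromosome 1 ends at 249231242, against 248937099 in RefSeq GRCh38.p14. The sources used here do not give the tool that made the tables, its annotation or its handling of mouse reads and strand. Per the file headers, each deposited table holds TPM, FPKM and coverage per gene. TPM, a share of 1000000 length-scaled transcripts made by the authors, was the main measure. The deposited FPKM and the deposited coverage, an average depth per base, were alternatives. Depth is unknown.

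Members were matched by symbol through Ensembl identifiers (52181 of 63677 had a symbol). Groups came from sample titles. Genes that reached a TPM of 1 in 3 or more of the 18 libraries were kept (18650). R 4.3.3 and limma 3.58.1 fitted 6 group means to log2(TPM + 1) with a mean-variance trend (12 residual degrees of freedom), Benjamini-Hochberg adjustment over all 18650 genes and a threshold of 0.05, for 12 comparisons and 29 alternatives, of which 18 leave out 1 library. The method was tested on simulated data with normal noise, no differences between lines and changes in SKNAS Hmx1 only. That setting differs from the real libraries, so it does not bear on the line contrasts or on values near 0. Named were all 10 genes; of other lists the counts, up to 6 called genes with the largest change, and CCN1, CCN2, LATS1 and LATS2; neighbours within 500 kb of YAP1 or WWTR1; and the 5 genes most like each. The members and lists were chosen with earlier results of these data known. A gene of the upstream list and a noradrenergic marker are not reported here, and list counts leave them out. Promoters came from RefSeq on GRCh38.p14.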

Additional observations from a re-analysis of the deposited data

Results flagged for a closer look

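Among the 9 tested genes of the set, none had an Hmx1 effect that differed between lines at an adjusted p under 0.05. In the Hippo lists 3 genes did, each by limma's test of the difference itself. MAP4K1, a kinase upstream of LATS1 and LATS2, averaged 3.39 ± 0.632 TPM in SKNAS Hmx1 and 1.66 ± 0.189 TPM in SKNAS control tumours, and 3.0001 ± 0.721 TPM in LAN-1 Hmx1 and 5.35 ± 0.239 TPM in LAN-1 control tumours (SD over 3 libraries). The difference of its effects was 1.40 (SE 0.33, limma adjusted p = 0.0159) and was called in all 29 alternatives, although neither line's own effect was called. For AMOT, the effect in SKNAS minus that in LAN-1 was 1.52 (SE 0.41, limma adjusted p = 0.0402), called in 14 of 29 alternatives. AMOT had 19.2, 10.03 and 12.2 TPM in LAN-1 Hmx1 tumours, against 19.0, 17.1 and 19.0 TPM in LAN-1 control tumours. For CCN2, the effect in SKNAS minus that in LAN-1 was 1.29 (SE 0.35, limma adjusted p = 0.0417), called in 14 of 27 alternatives. CCN2 was near 0 in LAN-1, at 0.328, 0 and 0 TPM in Hmx1 tumours, against 0.876, 0.239 and 0.207 TPM in control tumours. Each of the calls for AMOT and CCN2 was lost when any of several single libraries was left out, among them every SKNAS Hmx1 library.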

How the results depend on the processing

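No paired analysis was possible because the labels give no replicate numbers. Over the 29 alternatives, 1374 results of single genes of the set kept their direction and side of the threshold. Of the others, 56 lost their call, 28 gained one with the same sign, and 15 changed sign, whether called or not. The counts of called genes in the other comparisons stayed within 1.5 times. Hmx1 against control in SKNAS called 1 gene on FPKM, and 0 to 1 leaving out 1 library. Hmx1 against control in LAN-1 called 1 gene, TEAD4, on FPKM. It called 1 gene, TEAD2, with a pseudocount of 0.1 or 0.5, TPM without mitochondrial transcripts, median-ratio scaling, coverage with median-ratio scaling or quantile normalization. Leaving out 1 library it called 0 to 1 gene. LAN-1 against KELLY called 2 genes in either arm when only the groups compared were fitted, and 2 to 5 in the Hmx1 arms leaving out 1 library. Coverage (a choice added after the data were seen) called 1 gene for each of the effect differences of LAN-1 from SKNAS and KELLY, which ranged over 0 to 1 leaving out 1 library. TEAD4 between SKNAS and KELLY turned to -0.069 (control) and -0.16 (Hmx1) on FPKM, -0.42 and -0.50 with median-ratio scaling, -0.44 and -0.54 on coverage, -0.46 and -0.54 with quantile normalization, and in the Hmx1 arms ranged over -0.00251 to 0.15 leaving out 1 library, below 0 without KELLY Hmx1 replicate 3. In both arms its values with median-ratio scaling, coverage and quantile normalization were called as lower in SKNAS. TEAD4 between LAN-1 and KELLY control tumours turned to -0.11 on FPKM, -0.16 without mitochondrial transcripts, -0.30 with median-ratio scaling, -0.44 on coverage and -0.29 with quantile normalization, and TEAD1 there to -0.052 on coverage. Only the TEAD4 value on coverage was called among these. The causes were not tested. Unknown depth limits all values near 0.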
